A study of Mus musculus with 4 samples.

Results

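The genes described here encode heat shock proteins and the chaperones that work with them. They were chosen by name: the Hspa, Hspb, Hspd, Hspe, Hsph and Hsp90 genes, Cryab, the J proteins (Dnaja, Dnajb and Dnajc), the CCT subunits, the Bag proteins and the heat shock factors Hsf1 and Hsf2. Of the 32868 gene names in the tables, 90 fitted these names, 4 of them were listed at 0 in all libraries (Dnajb8, Dnajc22, Dnajc5b and Dnajc5g), and 86 remained. The tissue was the tibialis anterior, the shin muscle that lifts the foot, of C57BL/6 mice at postnatal day 21, and the study asked how muscle depends on Nf1 for its growth and metabolism at this age. Nf1 encodes neurofibromin, which returns active Ras to its resting state. The Nf1-KO group (Nf1flox/flox/Myf5+) carried both Nf1 alleles floxed, and the Het group (Nf1flox/+/Myf5+) carried 1 floxed and 1 intact allele. Both groups carried Myf5+, which in the published model is a Cre recombinase expressed from Myf5 in muscle precursors. The comparison is therefore between loss of both copies and loss of 1 copy in that lineage, and no group without Cre was analysed here. Each group had 2 libraries. Nothing in the labels ties a library to its own animal, so p-values measure only the spread between these libraries. They give neither the sex of the mice nor whether animals were pooled.

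Values are RPKM, reads normalised to transcript length and library depth, as deposited. Means are given with the SD over the 2 libraries of a group. Fold changes and tests come from limma on log2(RPKM + 1) after scaling between libraries, adjusted by Benjamini-Hochberg over the 10690 genes that had at least 0.5 RPKM in at least 2 libraries. A gene was called when its adjusted p was under 0.05. Nf1 itself was 1.09 and 1.01 RPKM in Het and 0.89 and 0.85 RPKM in Nf1-KO, a log2 fold change of -0.18 with a limma adjusted p of 0.041. The fall was larger with a pseudocount of 0.1 (-0.33, limma adjusted p 0.045), and the authors' deposited table gave Nf1 -0.38 with an adjusted p of 0.0026. The call was lost with values as deposited (-0.13, limma adjusted p 0.094). It was also lost without Het replicate 1, Het replicate 2, Nf1-KO replicate 1 or Nf1-KO replicate 2, with log2 fold changes of -0.21 to -0.15. RNA came from the whole muscle, so cells outside the Myf5 lineage can add to the value. Exons of Nf1 outside the floxed part can add to it as well, and the part of either was not tested. In bulk muscle, fewer cells of a type and less RNA per cell cannot be told apart.

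Chaperones bind unfolded stretches of other proteins and help them fold, stay soluble or reach degradation. Hsp70 proteins do this in cycles of ATP binding and hydrolysis, which J proteins start and nucleotide exchange factors such as Hsp110 and the Bag proteins end. Hsp90 completes the folding of kinases and steroid receptors, the ring complexes CCT and Hsp60 enclose their clients, and small heat shock proteins hold unfolded proteins without ATP. In muscle the small heat shock proteins are abundant and lie at the Z-disc and along titin and desmin, and Bag3 with Hspb8 and Hsc70 removes damaged filamin. Hsf1 drives the cytosolic heat shock response, while the endoplasmic reticulum (ER) and the mitochondria have chaperones and stress responses of their own.

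Of the 86 genes, 76 were high enough to be tested. In Nf1-KO 19 were called higher and 27 lower, while 30 were not called. Together 60.5% of the tested chaperone genes were called, where 50.3% of all tested genes were. By direction, 25% were higher and 35.5% lower, against 24.9% and 25.4% of all tested genes. The libraries of the groups did not overlap in 64 chaperone genes (84.2%), and in 76.3% of all tested genes. The changes were small: log2 fold changes ran from -0.73 to 0.44 with a median of -0.01, and the median of all tested genes was 0.00. Only Hsph1 was called with an absolute log2 fold change of at least 0.5, which is 1.32% of the chaperone genes against 9.75% of all tested genes. That count rests on the pseudocount of 1: the authors' deposited table called Hsph1, Dnajb14 (-0.72, adjusted p 0.0087) and Dnajc12 (-0.59, adjusted p 0.00016) beyond the same size. The median absolute log2 fold change was 0.16 both for the chaperone genes and for all tested genes.

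Directions depended on the scaling for the smallest changes. With values as deposited the median of all tested genes was 0.07 and that of the chaperone genes 0.06, so 28 chaperone genes were called higher and 20 lower, where 35.2% and 17.6% of all tested genes were. Calls with the same sign under both scalings were made for 39 genes, 19 higher and 20 lower. The sign turned for 2 called genes, Hspa8 and Cct5. Calls survived the removal of each library in turn for 34 of the 46 genes, 14 higher and 20 lower, and no called gene changed sign in those fits. The calls lost in at least 1 of them were those of Bag1, Cct5, Cct7, Dnaja1, Dnaja4, Dnajb1, Dnajb14, Dnajc25, Hsp90b1, Hspa13, Hspa4 and Hspe1.

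**Figure D1:**
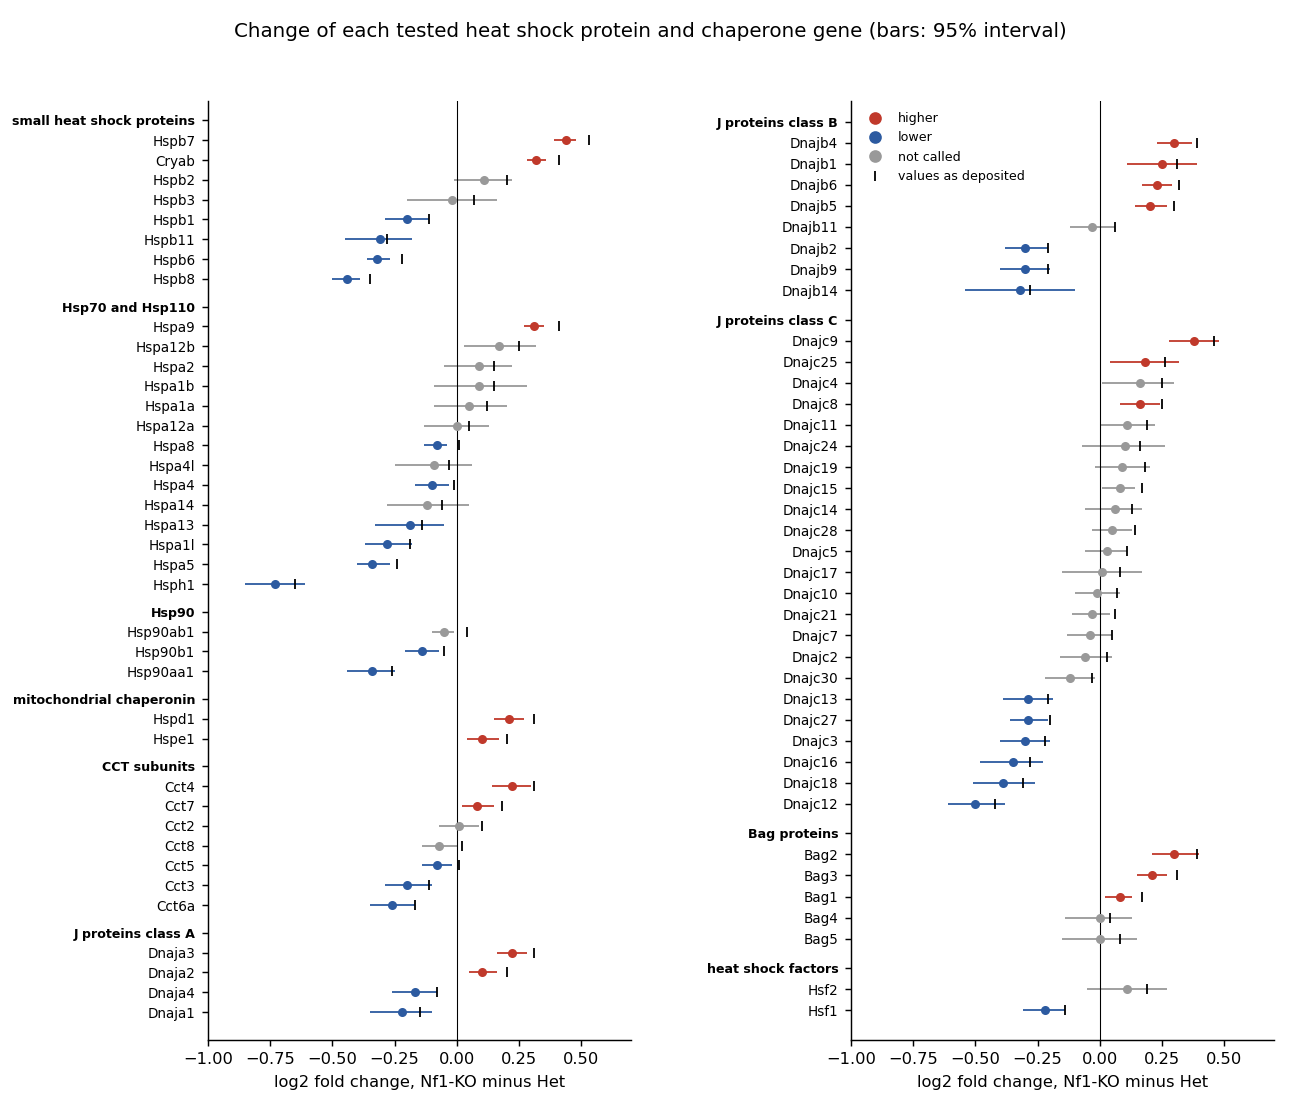
Log2 fold change of Nf1-KO against Het (x axis) for each of the 76 tested genes, grouped by family, with bars for the 95% interval from limma; red marks genes called higher, blue genes called lower and grey genes not called, and black ticks give the log2 fold change of the values as deposited. Most families hold both red and blue points, Hsph1 lies lowest at -0.73 and Hspb7 highest at 0.44, and the black ticks lie to the right of the points.

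The small heat shock proteins were the most abundant family, and its members moved in opposite directions. They held 38% and 38.2% of the RPKM of all 86 genes in Het and 36.6% and 36.5% in Nf1-KO. Hspb6 (Hsp20), which binds actin-associated proteins in muscle, was the highest of the chaperone genes. Het gave 606 and 612 RPKM, Nf1-KO 527 and 516 RPKM. Both Nf1-KO libraries were thus below both Het libraries, a fall from 609 ± 4.6 to 521 ± 8.3 RPKM (SD, n = 2) and by 0.32 on the log2 scale (standard error 0.019, limma adjusted p 4.3e-05).

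Cryab (alpha B-crystallin), a chaperone of desmin and titin that is most abundant in oxidative fibres, rose. Its values were 240 and 243 RPKM in Het and 320 and 323 RPKM in Nf1-KO. This was a rise by 0.32 on the log2 scale (standard error 0.018, limma adjusted p 3.2e-05). Hspb7, a partner of filamin C in heart and skeletal muscle, showed the largest rise of the tested chaperone genes on the log2(RPKM + 1) scale. It was 116 and 115 RPKM in Het and 168 and 166 RPKM in Nf1-KO, with a log2 fold change of 0.44 (standard error 0.02, limma adjusted p 1.4e-05). The ratio of Cryab to Hspb6, which no scaling between libraries can change, was 0.396 in each Het library and 0.608 and 0.627 in the Nf1-KO libraries.

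Hspb8, which pairs with Bag3, fell from 121 and 117 RPKM in Het to 93.4 and 92.1 RPKM in Nf1-KO. It fell by 0.44 on the log2 scale (standard error 0.024, limma adjusted p 3.1e-05). Hspb1 (Hsp25), an actin-stabilising member, was 71.1 and 75.8 RPKM in Het and 66.8 and 69.1 RPKM in Nf1-KO. It fell by 0.20 on the log2 scale (limma adjusted p 0.0047), and by 0.11 with values as deposited (0.045). A processed pseudogene, Hsp25-ps1, holds 48.8% of the stretches of 50 bases in the Hspb1 transcripts, so its value is uncertain as far as the counting split such reads.

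The remaining members of the family were low. Hspb11, which is known as a subunit of the intraflagellar transport machinery, was 0.73 RPKM in both Het libraries and 0.44 and 0.41 RPKM in Nf1-KO (log2 fold change -0.31, limma adjusted p 0.0044). In the authors' deposited table Hspb11 had a mean normalized count of 50.9 and changed by -0.88 on the log2 scale, with an adjusted p of 0.079. Hspb2, whose gene lies head to head with Cryab on chromosome 9, had a log2 fold change of 0.11 (limma adjusted p 0.103) at 15.2 ± 0.91 and 17.6 ± 0.62 RPKM (SD, n = 2). The 95% interval of that difference was -0.01 to 0.22. Transcripts of Cryab and Hspb2 share 13.3% of the 50-base stretches of Cryab and 24.4% of those of Hspb2. Hspb3 was at 14.2 ± 1.8 and 14.9 ± 0.057 RPKM (SD, n = 2; log2 fold change -0.02, limma adjusted p 0.84). Summed with values as deposited, before scaling, the RPKM of the family was 1185 and 1190 in Het and 1208 and 1199 in Nf1-KO. In that total the falls and rises nearly cancelled, but scaling turns the order of the sums round.

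**Figure D2:**
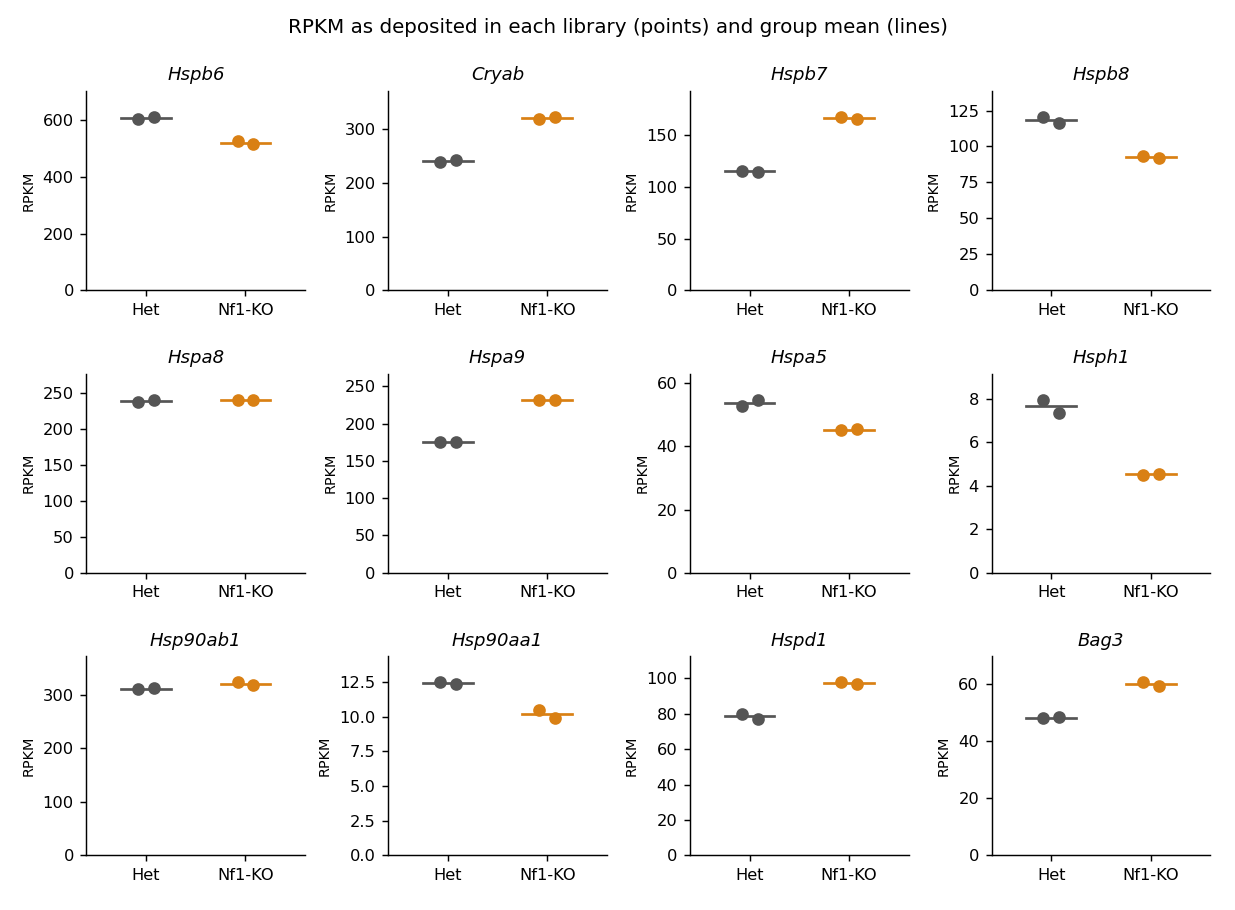
RPKM as deposited (y axis, from 0) in each Het library (grey points) and each Nf1-KO library (orange points) for 12 genes, with lines at the group means of 2 libraries. Cryab, Hspb7, Hspa9, Hspd1 and Bag3 are higher in both Nf1-KO libraries, Hspb6, Hspb8, Hspa5, Hsph1 and Hsp90aa1 are lower, and Hspa8 and Hsp90ab1 lie almost level.

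Among the Hsp70 and Hsp110 genes 1 was called higher and 6 lower of 14 tested, and 2 were higher and 3 lower with values as deposited. Over all tested genes the shares were 24.9% higher and 25.4% lower, and 35.2% and 17.6% with values as deposited. Hspa8 (Hsc70), the constitutive Hsp70 of the cytosol, was the most abundant at 237 and 240 RPKM in Het and 240 RPKM in both Nf1-KO libraries. Its log2 fold change was -0.08 (limma adjusted p 0.0097) after scaling and 0.01 (0.598) with values as deposited, so its direction rests on the scaling. The call was also lost without the variance trend (limma adjusted p 0.113). Retrocopies such as Gm15459 hold 34.6% of the 50-base stretches of its transcripts.

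Hsph1 (Hsp110), the nucleotide exchange factor of cytosolic Hsp70, showed the largest change of the tested chaperone genes on the log2(RPKM + 1) scale. It was 7.95 and 7.33 RPKM in Het and 4.5 and 4.54 RPKM in Nf1-KO. The groups did not overlap, and Hsph1 fell by 0.73 on the log2 scale (standard error 0.049, limma adjusted p 7.7e-05). The authors' deposited table gave Hsph1 a mean normalized count of 1946 and a log2 fold change of -0.86. The pseudocount of 1 shrinks the change of low genes, and the rank depends on it: as deposited the mean of Hspb11 changed by -41.8% and that of Hsph1 by -40.8%. Per unit of Hsph1 there was 29.8 and 32.7 times as much Hspa8 in Het and 53.4 and 52.9 times as much in Nf1-KO.

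The heat-inducible Hsp70 genes Hspa1a and Hspa1b, classical targets of Hsf1, were low. Hspa1a was 1.86 and 1.67 RPKM in Het and 1.98 and 2.01 RPKM in Nf1-KO, with a log2 fold change of 0.05 and a 95% interval of -0.09 to 0.20 (limma adjusted p 0.474). For Hspa1b these were 0.09 and -0.09 to 0.28 (0.353). The genes are near-identical neighbours: 58.8% of the 50-base stretches of Hspa1a also occur in Hspa1b, so their separate values are uncertain. Other cytosolic members were also low or close to level. Hspa4, another exchange factor, was called lower only after scaling (-0.10, limma adjusted p 0.033; -0.01 with values as deposited), and Hspa4l, Hspa2, Hspa14, Hspa12a and Hspa12b were not called.

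The Hsp90 genes of the cytosol differed in level and in change. Hsp90ab1, the constitutive form, was 310 and 314 RPKM in Het and 324 and 318 RPKM in Nf1-KO. It was not called (log2 fold change -0.05, limma adjusted p 0.054, 95% interval -0.10 to -0.01), and its sign turned with values as deposited (0.04). Hsp90aa1, the stress-inducible form, fell from 12.5 and 12.3 RPKM to 10.5 and 9.93 RPKM, a log2 fold change of -0.34 (limma adjusted p 0.00069). The ratio of Hsp90ab1 to Hsp90aa1 was 24.9 and 25.4 in Het and 30.8 and 32.1 in Nf1-KO. The retrocopy Gm12346 holds 41.8% of the 50-base stretches of Hsp90aa1.

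Of 10 mitochondrial chaperone genes, 4 were called higher and 0 lower, where 24.9% and 25.4% of all tested genes were. These 4 serve the matrix. Hspa9 (mortalin), the Hsp70 that pulls proteins into the matrix, was 175 RPKM in both Het libraries and 232 RPKM in both Nf1-KO libraries, a log2 fold change of 0.31 (standard error 0.017, limma adjusted p 3.4e-05). Hspd1 (Hsp60), the subunit of the folding chamber, was 79.9 and 77.2 RPKM in Het and 97.8 and 97 RPKM in Nf1-KO, with a log2 fold change of 0.21 (limma adjusted p 0.00066). Hspe1 (Hsp10), its lid, was 45.7 and 43.8 RPKM in Het and 51.5 and 51.4 RPKM in Nf1-KO. It rose by 0.10 on the log2 scale (limma adjusted p 0.022), a call that was lost without Het replicate 2, without Nf1-KO replicate 1 or without Nf1-KO replicate 2, where its highest limma adjusted p was 0.1. Other transcripts hold 42.1% of the 50-base stretches of Hspd1 (38% in the pseudogene Hspd1-ps3) and 22.8% of those of Hspe1, so both values are uncertain as far as the counting split such reads. Dnaja3 (Tid1), the J protein of the matrix, rose from 33.9 and 34 RPKM to 42.4 and 42.3 RPKM, a log2 fold change of 0.22.

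The median of the 10 was 0.11. The 6 others, Dnajc4, Dnajc11, Dnajc15, Dnajc19, Dnajc28 and Dnajc30, were not called after scaling. With values as deposited 9 of the 10 were called higher and 0 lower, where 35.2% and 17.6% of all tested genes were. Dnajc15, a J protein of the import motor and the highest of these, had 41.9 ± 0.91 and 47.3 ± 0.78 RPKM (SD, n = 2; log2 fold change 0.08, limma adjusted p 0.057). Of 13 mitochondrial exchange factors, chaperones and proteases outside the chaperone families, 11 were called higher and 0 lower, with a median of 0.19. Of all tested genes 24.9% and 25.4% were. The list was chosen with earlier results of these data known, so it is not separate support. Clpx, the unfoldase of the matrix protease ClpXP, rose from 19 and 18.9 RPKM to 31 and 30.5 RPKM (log2 fold change 0.58, limma adjusted p 1.8e-05). Clpb and Yme1l1 were not called.

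Of 10 ER chaperone genes tested, 7 were called lower and 1 higher, where 25.4% and 24.9% of all tested genes were. Hspa5 (BiP), the Hsp70 of the ER, was 52.8 and 54.8 RPKM in Het and 45 and 45.6 RPKM in Nf1-KO, a log2 fold change of -0.34 (standard error 0.027, limma adjusted p 0.00017). The ratio of Hspa9 to Hspa5 was 3.31 and 3.2 in Het and 5.16 and 5.09 in Nf1-KO. Among the J proteins that serve Hspa5, Dnajb9 (ERdj4) fell from 20.6 and 20.7 RPKM to 17.1 and 18.4 RPKM (log2 fold change -0.30, limma adjusted p 0.0015). Dnajc3 (p58IPK) fell from 6.75 and 6.66 RPKM to 5.73 and 5.53 RPKM, also by 0.30 (limma adjusted p 0.0017), and Dnajc16 fell by 0.35 (0.0021).

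Hsp90b1 (Grp94), the Hsp90 of the ER, was 22.4 and 22.7 RPKM in Het and 21.5 and 22 RPKM in Nf1-KO. Its log2 fold change was -0.14 (limma adjusted p 0.0095), and it was not called with values as deposited (-0.05, 0.213) or without Het replicate 2 or Nf1-KO replicate 1. The median of the 10 ER genes was -0.25. With values as deposited 5 were called lower and 1 higher, where 17.6% and 35.2% of all tested genes were. The higher gene was Dnajc25, at 0.18 (limma adjusted p 0.041, lost without Het replicate 2, Nf1-KO replicate 1 or Nf1-KO replicate 2). Dnajb11 and Dnajc10 were not called. The calls of Hspa13 and Dnajb14 were also lost when libraries were left out: for Hspa13 without any 1 of the 4, and for Dnajb14 without Het replicate 1, Het replicate 2 or Nf1-KO replicate 1.

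Of 20 ER folding partners, 10 were called lower and 3 higher, with a median of -0.14, where 25.4% and 24.9% of all tested genes were. With values as deposited 5 were lower and 3 higher, where 17.6% and 35.2% of all tested genes were. Xbp1, a transcription factor of the unfolded protein response, and Sil1, the exchange factor of Hspa5, had log2 fold changes of -0.49 and -0.47. Herpud1 and P4hb, the beta subunit of the collagen prolyl hydroxylase, were higher at 0.29 and 0.18.

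The promoters of the members were searched for the elements that the heat shock factors and the ER stress factors are known to bind. RefSeq start sites (GRCm38.p6) were found for 70 of the 86 genes, and the 250 bases before each were read on both strands. The ER stress element, searched as CCAAT, then any 9 bases, then CCACG, was found in 3 of the 70, Hspa5, Hsp90b1 and Dnajc3 (4.29%), and in 0.13% of all genes with a promoter. All 3 genes were called lower, where 25.4% of all tested genes were, but Hsp90b1 was not called with values as deposited. The heat shock element, searched as GAA, TTC and GAA with any 2 bases between each, was found in Dnajb6 and in the promoter that Hspd1 and Hspe1 share, again 4.29% of the 70, and in 0.514% of all genes with a promoter. Those 3 genes were called higher, where 24.9% of all tested genes were. Hspd1 and Hspe1 count here through 1 shared promoter, and Hspe1 was not called in the authors' deposited table (adjusted p 0.333). Whether either element goes with a direction was not tested. A match is a description of letters and not of binding. The sequences are shown to let the matched letters be read in place, with the matches in capitals, 5′ to 3′ on the strand of the gene. Dnajc3 (chr14:118937682-118937931, plus strand) and Hsp90b1 (chr10:86705510-86705694, minus strand, with 2 matches) are shown over the bases that no annotated exon covers. The others are cut to 30 bases: Hspa5 at chr2:34772020-34772049 (plus strand), Dnajb6 at chr5:29735844-29735873 (plus strand) and Hspe1 at chr1:55088053-55088082 (plus strand, with 2 overlapping matches).
Dnajc3: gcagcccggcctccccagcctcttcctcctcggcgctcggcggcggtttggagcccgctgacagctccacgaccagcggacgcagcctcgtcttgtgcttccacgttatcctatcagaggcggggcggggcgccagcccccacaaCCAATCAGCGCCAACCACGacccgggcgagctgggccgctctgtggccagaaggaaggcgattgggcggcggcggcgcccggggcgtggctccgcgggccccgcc
Hsp90b1: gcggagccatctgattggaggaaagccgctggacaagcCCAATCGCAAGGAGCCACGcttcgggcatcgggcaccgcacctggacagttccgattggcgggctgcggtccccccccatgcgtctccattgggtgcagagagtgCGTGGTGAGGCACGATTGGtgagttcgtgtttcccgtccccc
Hspa5: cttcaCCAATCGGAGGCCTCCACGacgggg
Dnajb6: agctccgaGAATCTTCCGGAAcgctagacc
Hspe1: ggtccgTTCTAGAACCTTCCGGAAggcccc

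The subunits of CCT, the ring that folds actin and tubulin, did not move as a block. Of 7 tested, Cct4 and Cct7 were called higher, Cct3, Cct5 and Cct6a lower, and Cct2 and Cct8 were not called. With values as deposited 3 were higher and 1 lower. Over all tested genes the shares were 24.9% higher and 25.4% lower, and 35.2% and 17.6% with values as deposited. Cct4 rose from 25.7 and 25.1 RPKM to 31 and 32.4 RPKM (log2 fold change 0.22, limma adjusted p 0.0019). Cct6a fell from 36.4 and 38.4 RPKM to 34 and 32.5 RPKM (-0.26, limma adjusted p 0.0019); Psph shares 11% of its 50-base stretches. The calls of Cct5 (-0.08) and Cct7 (0.08) were each lost without any 1 of the 4 libraries, and Cct5 was at 0.01 with values as deposited. Cct2 lay at 39.7 ± 0.3 and 42.7 ± 1.7 RPKM (SD, n = 2; log2 fold change 0.01, limma adjusted p 0.788), and was called higher with values as deposited (0.10, limma adjusted p 0.038). Tcp1, the first subunit of the ring, which its name leaves outside the families above, had a log2 fold change of 0.13 (limma adjusted p 0.112). Tcp1 was called higher with values as deposited (0.22, limma adjusted p 0.021) and without Nf1-KO replicate 2 (0.20, limma adjusted p 0.018). Summed over the family with values as deposited, before scaling, RPKM was 228 and 227 in Het and 238 and 236 in Nf1-KO. Scaling turns the order of these sums round. Of 10 prefoldin and CCT partners, 2 were called higher and 3 lower, and 4 and 0 with values as deposited. The shares of all tested genes are those given above for the CCT subunits.

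The J proteins choose the clients of Hsp70. Of 4 class A genes, Dnaja2 and Dnaja3 were called higher, and Dnaja1 and Dnaja4 lower, where 24.9% and 25.4% of all tested genes were. Dnaja2, the most abundant J protein, rose from 61.8 and 62.1 RPKM to 71.4 and 71 RPKM (log2 fold change 0.10, limma adjusted p 0.0084), a call that was lost without the variance trend (limma adjusted p 0.062). Dnaja4 had 29.3 ± 0.88 and 27.8 ± 0.98 RPKM (SD, n = 2; -0.17, limma adjusted p 0.0095), a call that was lost without Het replicate 1 and with values as deposited (-0.08). Dnaja4 shares 42.7% of its 50-base stretches with its neighbour Wdr61. The call of Dnaja1 was lost without Het replicate 1 or Nf1-KO replicate 2.

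In class B, 4 of 8 tested genes were called higher and 3 lower, and 4 and 3 with values as deposited. Over all tested genes the shares were 24.9% higher and 25.4% lower, and 35.2% and 17.6% with values as deposited. Dnajb6, which keeps aggregation-prone proteins soluble at the Z-disc and is mutated in a limb-girdle muscular dystrophy, rose from 25.4 and 25.1 RPKM to 31.9 and 31.7 RPKM. Its log2 fold change was 0.23 (standard error 0.026, limma adjusted p 0.00067), and 21% of its 50-base stretches occur in other transcripts. Dnajb5 rose from 48.9 and 50.7 RPKM to 61.4 RPKM in both Nf1-KO libraries (0.20, limma adjusted p 0.0012), and Dnajb4 rose by 0.30. Dnajb1 (Hsp40), an Hsf1 target, was low at 1.44 and 1.55 RPKM in Het and 2.15 and 2.02 RPKM in Nf1-KO. Its log2 fold change was 0.25 (limma adjusted p 0.014), and its call was lost without Het replicate 1 or Nf1-KO replicate 1. Besides the ER proteins Dnajb9 and Dnajb14, Dnajb2 fell by 0.30.

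Class C holds J proteins of many special tasks, and 14 of its 23 tested genes were not called, with 3 higher and 6 lower. With values as deposited 9 were higher and 6 lower. Over all tested genes the shares were 24.9% higher and 25.4% lower, and 35.2% and 17.6% with values as deposited. Dnajc12 fell most, from 7.49 and 7.32 RPKM to 5.48 and 5.11 RPKM (log2 fold change -0.50, standard error 0.047, limma adjusted p 0.0003); it is a co-chaperone of the aromatic amino acid hydroxylases. Dnajc18, Dnajc27 and Dnajc13, an endosomal protein, fell by 0.39, 0.29 and 0.29. Dnajc27, a GTPase with a J domain, was 27.3 and 26.4 RPKM in Het and 23.5 and 23 RPKM in Nf1-KO. Dnajc9, which handles histones, rose by 0.38 from 5.3 and 5.25 RPKM to 7.53 and 7.73 RPKM (limma adjusted p 0.0005). Dnajc8, a splicing protein, rose by 0.16 from 24.8 and 24.7 RPKM to 30.3 and 29.1 RPKM.

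Bag proteins release substrates from Hsp70. Of 5 tested, 3 were called higher and 0 lower, and 3 and 0 with values as deposited. Of all tested genes 24.9% were called higher and 25.4% lower, and 35.2% and 17.6% with values as deposited. Bag3, the co-chaperone of filamin turnover at the Z-disc, rose from 48.1 and 48.7 RPKM to 60.8 and 59.4 RPKM (log2 fold change 0.21, standard error 0.025, limma adjusted p 0.00076). Its partner Hspb8 fell, and the ratio of Hspb8 to Bag3 was 2.51 and 2.39 in Het and 1.54 and 1.55 in Nf1-KO. Flnc (filamin C), a client of the pair, fell from 73.5 and 75.8 RPKM to 54.6 and 52.5 RPKM (log2 fold change -0.56, limma adjusted p 2.9e-05). Stub1 (CHIP), the ubiquitin ligase of this pathway, was not called (-0.04, limma adjusted p 0.516; 0.05 with values as deposited). Bag2, an inhibitor of that ligase, rose from 8.87 and 8.93 RPKM to 11.7 and 12.3 RPKM (0.30, limma adjusted p 0.0011). Bag1, the most abundant, was 102 and 98.7 RPKM in Het and 112 and 114 RPKM in Nf1-KO. Its call (0.08, limma adjusted p 0.037) was lost without Het replicate 2, Nf1-KO replicate 1 or Nf1-KO replicate 2.

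Hsf1, the master regulator of the heat shock response, was 15.8 and 16.4 RPKM in Het and 14.7 and 14.4 RPKM in Nf1-KO. It fell by 0.22 on the log2 scale (standard error 0.035, limma adjusted p 0.0026), and by 0.14 with values as deposited (0.018). Hsf2 was 6.72 and 7.29 RPKM in Het and 8.69 and 7.65 RPKM in Nf1-KO. Its difference was not called (0.11, 95% interval -0.05 to 0.27, limma adjusted p 0.215). Of 15 genes of the cytosolic heat shock response, 6 were called higher and 6 lower, where 24.9% and 25.4% of all tested genes were. The median of the 15 genes was 0.05. Of these, the higher were Dnajb1, Dnajb4, Cryab, Bag3, Hspd1 and Hspe1, and the lower were Hspa8, Hsp90aa1, Hsph1, Dnaja1, Hspb1 and Hspb8. Hspd1 and Hspe1 act in mitochondria and are also counted among the 10 mitochondrial genes above. With values as deposited 6 of the 15 were higher and 5 lower, where 35.2% and 17.6% of all tested genes were. The genes of this response therefore did not move in 1 direction.

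Co-chaperones of Hsp90 and Hsp70 outside the named families were mixed as well. Of 22, 4 were called higher, 5 lower and 13 were not called, and 6 were higher and 5 lower with values as deposited. Over all tested genes the shares were 24.9% higher and 25.4% lower, and 35.2% and 17.6% with values as deposited. Fkbp5, a cofactor of Hsp90 in steroid receptor complexes and a glucocorticoid target, stood apart at 5.67 and 5.52 RPKM in Het and 27.9 and 27.3 RPKM in Nf1-KO (log2 fold change 2.03, limma adjusted p 4.6e-07). Chordc1 fell by 0.50 from 13.8 and 14.3 RPKM to 10.3 and 10.4 RPKM. Of 11 muscle partners, 3 were called higher and 5 lower, and 4 and 4 with values as deposited. Unc45b, the chaperone that folds the myosin head together with Hsp90, was among the lower genes, at 60.8 and 58.1 RPKM in Het and 50.8 and 51.1 RPKM in Nf1-KO (-0.31, limma adjusted p 0.00025).

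**Figure D3:**
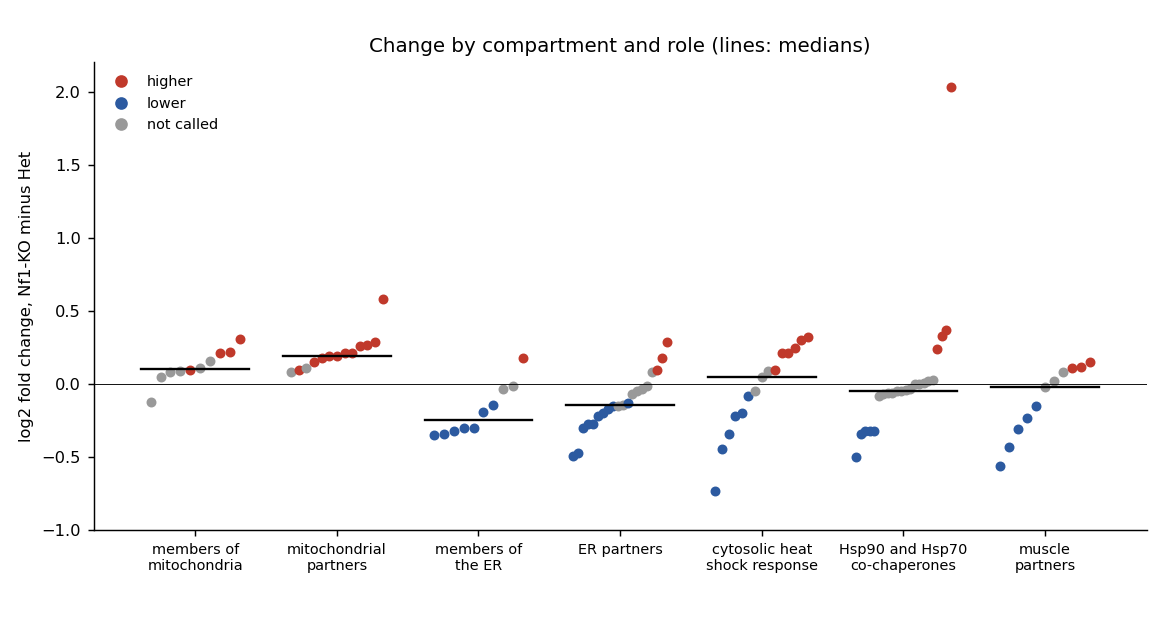
Log2 fold change of Nf1-KO against Het (y axis) for each tested gene of 7 lists, with lines at the list medians; red marks genes called higher, blue genes called lower and grey genes not called. Both mitochondrial lists lie mostly above 0 (medians 0.11 and 0.19) and both ER lists mostly below 0 (medians -0.25 and -0.14), while the cytosolic lists hold genes on both sides and Fkbp5 stands at 2.03. Hspd1 and Hspe1 are drawn both with the mitochondrial members and with the cytosolic heat shock response.

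Levels ran from 0.41 to 612 RPKM among the tested chaperone genes, and 8 of them averaged at least 100 RPKM. Of these 8, 4 were higher (Cryab, Hspa9, Hspb7 and Bag1), 3 lower (Hspb6, Hspa8 and Hspb8) and Hsp90ab1 was not called. In the authors' deposited table the mean normalized counts of the 76 tested genes ran from 50.9 to 40356 with a median of 1735. Replicates lay close together: the SD as a share of the mean had a median of 1.62% in Het and 1.43% in Nf1-KO over 56 genes that averaged 5 RPKM or more. The authors' deposited table listed 78 of the 86 genes and called 13 higher and 25 lower at an adjusted p under 0.05. Of all genes in the authors' deposited table, a share of 31.7% was called. Both that table and the test here called 37 chaperone genes with the same sign and 0 with opposite signs, 9 were called here only, and 1, Hsp90ab1, was called in the authors' deposited table only.

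**Figure D4:**
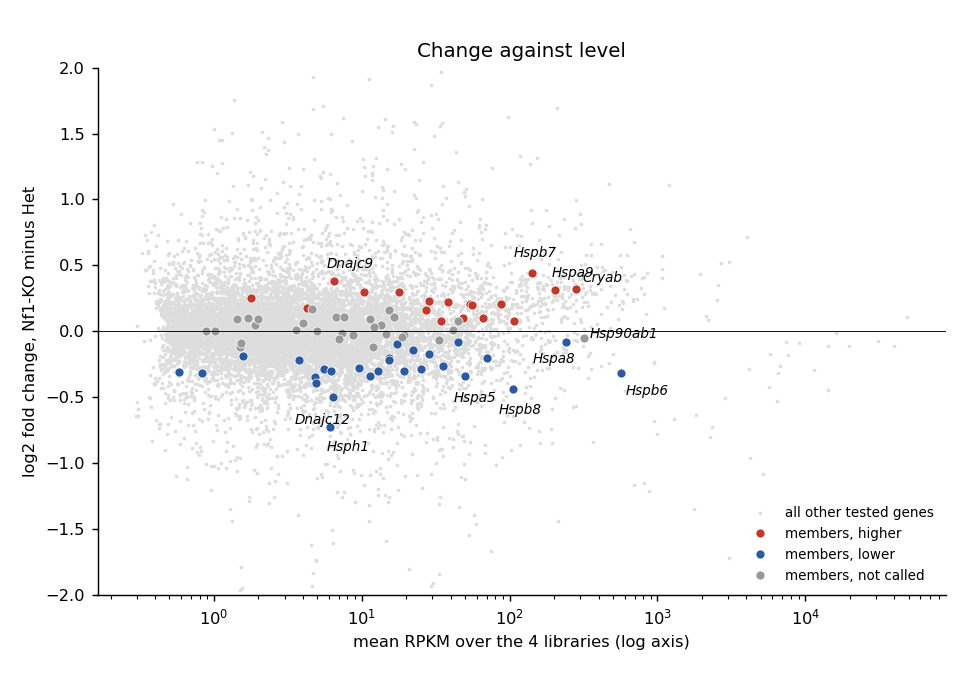
Log2 fold change of Nf1-KO against Het (y axis) against the mean RPKM of the 4 libraries (x axis, log scale) for the 76 tested chaperone genes, in red (called higher), blue (called lower) and grey (not called), over all other tested genes in light grey; 25 tested genes beyond 2 on the log2 scale are not drawn. The chaperone genes stay between -0.73 and 0.44, inside the spread of the other genes, and the abundant ones lie on both sides of 0.

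The muscle identity of the libraries and their other cell types were read from marker lists. All 10 myofibre markers were present, with 60522 and 60543 summed RPKM in Het and 50122 and 49565 in Nf1-KO, and 8 of them, the fast-fibre myosin Myh4 included, were called lower and 2 higher. Markers of other cells were far lower, and each list had a higher sum in both Nf1-KO libraries with values as deposited, before scaling. Of all tested genes 24.9% were called higher and 25.4% lower. Immune markers summed to 28.9 and 28.2 RPKM in Het and 64.6 and 63 RPKM in Nf1-KO, with 6 of 6 tested called higher and Adgre1 and its older name Emr1 listed at 0. Schwann cell markers summed to 16.1 and 16.4 against 37 and 35.4 RPKM (7 of 7 tested higher), and fibroblast markers to 99.7 and 97.2 against 149 and 150 RPKM (6 of 7 higher). Much of the fibroblast rise was Col1a1, at 10.7 RPKM in both Het libraries and 35.9 and 36.1 RPKM in Nf1-KO. Dcn rose by 0.10 on the log2 scale, and Dpt was not called. Adipocyte markers summed to 8.29 and 9.47 against 20 and 20.6 RPKM, with 2 of 3 tested higher. Most of that sum, and of its rise, was Cfd, at 5.87 and 6.8 RPKM in Het and 17.3 and 17.7 RPKM in Nf1-KO. Cidec was also called higher, while Adipoq was not called (log2 fold change -0.19, limma adjusted p 0.058). Of the untested adipocyte markers, Retn was higher in both Nf1-KO libraries, Lep was lower in both, and the groups overlapped in Plin1. Endothelial markers were 89.3 and 90.2 against 99.4 and 97.6 RPKM (3 higher and 2 lower of 8), and satellite cell markers 8.48 and 8.41 against 9.95 and 9.7 RPKM (2 of 4 higher). Blood markers summed to 1.47 and 1.37 against 1.78 and 1.66 RPKM, with Hbb-b1 listed at 0. Immediate early genes, which respond to handling, summed to 56.8 and 58 against 73.7 and 71.3 RPKM (6 higher and 2 lower of 8). Their part in the changes of the chaperone genes was not tested.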

How the data were processed

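Per the submitters' processing notes, STAR 2.4.2a, DESeq2 and the mouse build mm9 were used. The read counter, the annotation and strandedness are not given in the sources used here. The authors deposited RPKM, normalised to gene length and library depth: the file headers name only the library, and the unit was read from the values, which sum to 532315 to 547144 over 34682 rows, so read depth is unknown. The authors' deposited table has DESeq2's layout, per the file headers: a signal value (mean count divided by size factors), a log2 fold change, a test score and p-values. The direction of its log2 fold changes (Nf1-KO over Het) was read from the libraries' own values.

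The 33 rows named by a number (spoiled names) were left out, and the highest of repeated rows was kept. Library scaling used trimmed means of the log ratios without weights, dropping the outer 30% by ratio and 5% by abundance on either side (factors 0.969, 0.967, 1.03 and 1.03), and log2(RPKM + 1) was tested with limma 3.58.1 in R 4.3.3, with a variance trend and no covariate, two-sided. This scale understates changes of low genes. For a single gene, the smallest p of an exact permutation test in this design is 0.333. Shared stretches of 50 bases come from GENCODE M21 transcripts.

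The members and lists were chosen with earlier results of these data known. Genes were named if called with an absolute log2 fold change of at least 0.4 (partners 0.5), if among the 3 highest of a family, or from a fixed list; others named were chosen after their values were seen.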

Additional observations from a re-analysis of the deposited data

How the results depend on the processing

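The 12 alternatives gave 791 values, of which 711 kept direction and side of the threshold (counts within 1.5 times). Against 19 chaperone genes higher and 27 lower, leaving out 1 library gave 14 to 18 higher and 21 to 23 lower, where a lone library is assumed to vary like the other group. Partner calls went from 46 to between 37 and 41, and the members' median lay between -0.03 and -0.00. The share of called genes also fell over all tested genes when 1 library was left out. With the replicate number as a block 20 chaperone genes were higher and 27 lower, where 48.9% of all tested genes were called. Same-numbered libraries did not deviate together across genes (correlation -0.018). That gives no sign that the numbers pair them, but 1 correlation over 4 libraries cannot exclude it. The authors' deposited table called 13 higher, and values as deposited moved the median of the chaperone genes to 0.06.

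The Nf1 call was lost with values as deposited (-0.13, limma adjusted p 0.094), without a filter (-0.19), with the replicate block (-0.18) and without any 1 library (-0.21 to -0.15, limma adjusted p 0.061 to 0.16). It was kept with a pseudocount of 0.1 (-0.33, limma adjusted p 0.045), without the variance trend and in the authors' deposited table (-0.38, adjusted p 0.0026). With values as deposited Hspa8 (0.01), Cct5 (0.01), Hsp90ab1 (0.04) and Stub1 (0.05) turned positive. Cct2 turned to -0.00 without a filter and to -0.03 without Nf1-KO replicate 1, and Stub1, not called in any of these, lay between -0.09 and 0.02 when 1 library was left out. Without a filter 14 chaperone genes were higher and 24 lower, where 24% of the 18959 genes then tested were called in either direction. The cause was not tested. Depth per library is unknown, which limits what can be said of genes near 0.5 RPKM.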

Other observations

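Some chaperone genes that most cells use were listed close to 0. Bag6, a chaperone of membrane proteins, was 0.01, 0, 0.01 and 0.01 RPKM in the 4 libraries, Dnajb12 was 0.16, 0.08, 0.19 and 0.11 RPKM, and Dnajc1 was 0.05, 0.06, 0.07 and 0.07 RPKM. The 7 others that were not tested, Cct6b, Cct8l1, Dnajb13, Dnajb3, Dnajb7, Dnajc6 and Hspb9, also lay below 0.19 RPKM in every library. Such low values are reported as listed.

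Hspa1l, an Hsp70 gene best known from testis, was listed above both heat-inducible Hsp70 genes. It was 10.4 and 10.1 RPKM in Het and 8.67 and 9.06 RPKM in Nf1-KO, which is 5.6 and 6.06 times Hspa1a in Het and 4.38 and 4.51 times in Nf1-KO. It fell by 0.28 on the log2 scale (limma adjusted p 0.0017). Another annotated gene, Gm10501, holds 71.4% of the 50-base stretches of its transcripts, so the value is uncertain as a level of Hspa1l.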
